A study of Homo sapiens and Mus musculus with 16 samples.

Results

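Distal regions gained in HNF4G-KO cells are stretches of open chromatin away from gene starts that were listed in HPAF-II cells with an HNF4G knockout and had no counterpart in control cells. They were selected on the readout: a region of the HNF4G-KO list with a score of 98 or more, with no base of overlap with any control (Cas9) region, and more than 1 kb from every GENCODE start site. Of the 97047 regions of the HNF4G-KO list, 538 met this rule, out of 364071 regions in all 4 lists of the series. ATAC-seq marks DNA that a transposase can reach, and was performed on 16 samples in 4 groups of 4 replicates. HPAF-II is an established human pancreatic adenocarcinoma cell line. Both HPAF-II groups came from this line: the HNF4G-KO cells carry a CRISPR knockout of HNF4G (treatment label CRISPR-HNF4G-KO), and the control cells, labelled WT, received Cas9. The knockout line is a pool of clones grown from single edited cells, whose frameshift mutations the methods call heterozygotic. HNF4G protein is not measured in these lists, and clonal differences and the HNF4G knockout cannot be told apart here. The other groups are mouse KPC cell lines from a primary tumor and from liver mets. Each group has 1 region list that stands for its 4 replicates, so no difference below has a replicate check, no p-value is given, and the read depth behind each list is unknown. Wilson 95% intervals cover counting error only.

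The labelled cell type was checked at promoters. All 6 epithelial markers (EPCAM, CDH1, KRT8, KRT18, KRT19 and CLDN4) had a promoter region in both HPAF-II lists, as did the duct markers SOX9 and MUC1, and CFTR had one in neither. None of 3 endocrine markers had one in either list. Of 4 acinar markers, 2 had a promoter region in HNF4G-KO and 1 in control, the difference being CPA1, and 2 of 4 immune markers and 2 of 5 fibroblast and endothelial markers had one in both. Across HNF4G and its flanks of 10 kb, 9 regions were listed in HNF4G-KO and 12 in control. Of the 12, 3 were in control only, beside 25.0% of all control regions (29475 of 118107). None of the gained regions lay there.

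HNF4G is a nuclear receptor of the HNF4 family, which binds DNA through zinc fingers and keeps liver, gut and pancreatic epithelial genes active, often at enhancers shared with FOXA and GATA factors. Distal open regions are candidate enhancers, where several transcription factors bind short DNA motifs and keep nucleosomes away. FOXA and GATA proteins can engage closed chromatin, AP-1 (JUN and FOS) is active at open enhancers of most epithelial cancer cells, and CTCF marks insulators and loop anchors.

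The regions are easiest to picture by their sequence. The first one shown has the highest score of all, and it is the center of a region 554 bp wide (score 278) in an intron of a long non-coding RNA gene on chromosome 7, with SPDYE21 as the nearest protein-coding gene, 969 kb away. It is given as chr7:68246477-68246776 of hg38, plus strand, 5′ to 3′, and the capitals mark letters of AP-1 (TGANTCA) and of CEBP (TTGCNNAA, here on the minus strand).
SPDYE21: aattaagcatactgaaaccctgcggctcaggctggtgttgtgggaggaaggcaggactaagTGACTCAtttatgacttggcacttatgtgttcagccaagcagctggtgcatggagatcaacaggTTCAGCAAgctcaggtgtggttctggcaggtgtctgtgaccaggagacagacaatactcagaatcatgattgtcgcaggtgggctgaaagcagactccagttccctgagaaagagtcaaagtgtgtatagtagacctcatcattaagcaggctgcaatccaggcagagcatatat

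The next sequences were taken by score, 1 for each of 5 factors, from gained regions with over 90% unique sequence, 150 bp each around the match, and the capitals mark the letters of that factor. A region in an intron of RDX, 27.9 kb from the start site of the RNA-binding protein gene ZC3H12C, scored 202 and carried the FOXA letters TGTTTAC on the minus strand (chr11:110065403-110065552). An intronic region of DST, which encodes the cytoskeletal linker dystonin, scored 199 and carried AP-1 letters (chr6:56521691-56521840). The RUNX letters TGTGGTTT stood on the minus strand of an exonic region of MCF2L2 (score 157; chr3:183192781-183192930), and the TEAD letters ACATTCCA in an intron of LINC-PINT, 169 kb from KLF14 (score 172; chr7:130903739-130903888). The last sequence is the one gained region that held the HNF4 letters CAAAGTCCA. It is an exonic region of TBC1D30, a Rab GTPase-activating protein gene, and had the lowest score the rule admits, 98 (chr12:64820633-64820782). All are hg38, plus strand, and the windows for ZC3H12C and TBC1D30 run past the listed region on one side.
ZC3H12C, FOXA: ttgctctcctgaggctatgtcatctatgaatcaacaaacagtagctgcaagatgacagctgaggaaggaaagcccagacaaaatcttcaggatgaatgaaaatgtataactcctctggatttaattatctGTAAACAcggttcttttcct
DST, AP-1: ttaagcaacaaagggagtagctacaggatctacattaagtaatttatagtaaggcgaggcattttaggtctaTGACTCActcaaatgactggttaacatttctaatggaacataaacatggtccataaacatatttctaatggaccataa
MCF2L2, RUNX: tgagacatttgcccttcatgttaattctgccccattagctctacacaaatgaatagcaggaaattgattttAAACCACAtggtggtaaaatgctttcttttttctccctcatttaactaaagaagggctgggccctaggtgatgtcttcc
KLF14, TEAD: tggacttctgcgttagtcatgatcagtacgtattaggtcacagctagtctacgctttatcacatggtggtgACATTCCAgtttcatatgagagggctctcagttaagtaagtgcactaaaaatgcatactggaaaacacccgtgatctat
TBC1D30, HNF4: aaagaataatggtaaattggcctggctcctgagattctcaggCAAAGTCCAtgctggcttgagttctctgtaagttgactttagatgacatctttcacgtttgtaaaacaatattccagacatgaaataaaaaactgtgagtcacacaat

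Regions absent from control were a small part of the HNF4G-KO list and sat at its weak end. In the whole list, 6556 regions (6.76%) had no control counterpart. Among the 47502 distal regions of score 98 or more, the 538 gained regions were 1.13%. In the other direction, 8021 of 62929 distal control regions of that score (12.7%) had no HNF4G-KO counterpart. The lists differ in size (118107 in control), and scores were not compared between them. Scores of the gained regions ran from 98 to 278 with a median of 108, against a median of 166 over the whole HNF4G-KO list, whose scores ran from 20 to 1482. Only 17 gained regions (3.16%) were in the upper 50% of that list, and the highest stood at the 69.0th percentile. The share without a control counterpart was 6.19% (95% interval 5.52 to 6.93) at scores of 98 to 109, where 280 of the 538 lay. It was 3.25% (163 of 5020) at 110 to 129, 1.52% (65 of 4270) at 130 to 149 and 0.296% (24 of 8118) at 150 to 199. Above that, 6 of 10187 regions from 200 to 299 were gained, and 0 of 15384 from 300 upward, which allows a share of up to 0.0195%. These values belong to the rule and are a description.

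The score minimum falls on a step of the score, which takes certain values far more often than their neighbors. Of the distal HNF4G-KO regions without a control counterpart, 105 had a score of exactly 98, beside 15 at 99, 14 at 97 and 19 at 96. A further 155 had 89. Just inside the rule were regions nearest to ACTRT2, CAMTA1 and AGBL4 (score 98), and just outside were regions nearest to NMNAT2, DUSP10 and UBE2D1 (score 97). Gained regions were narrow, with a median width of 272 bp (quartiles 234 and 320) and 160 kb covered in all. The widest had 755 bp, and 35 had 500 bp or more. One region had a width of 1 bp and the next narrowest had 200 bp. Shared distal regions of score 98 to 150 had a median width of 329 bp. Width is tied to the rule, since a narrow region is less likely to overlap a control region, so these values too are a description.

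The 20 highest-scoring gained regions were spread over the genome, with scores from 157 to 278. After those near SPDYE21 and NUPR2 (intergenic, 79.7 kb away, score 268) came an intergenic region 269 kb from RBMS1 (score 267, chromosome 2), whose product is an RNA-binding protein. The fourth, nearest to DUX4, was the 1 bp region on chromosome 4 (score 264), and 19.8% of the 50-base sequences around it occur once in hg38. A region 274 kb from NRG3, the gene of a neuregulin ligand of ERBB receptors, scored 210 (chromosome 10) and lay 148 bp from another HNF4G-KO region and 675633 bp from the nearest control region. That is the farthest from control among these 20. ZC3H12C (202), DST (199), ASAP2 (181), BARX1 (176), KLF14 (172) and ZNF248 (171) followed. ASAP2 is an Arf GTPase-activating protein gene, and its intronic region was 1.67 kb from the start site. BARX1 and KLF14 are transcription factor genes, 59.1 kb and 169 kb from their regions.

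Regions nearest to TRIM63, PIP4K2A, ANKRD30A, SETMAR and GLRA1 shared a score of 167. The one at PIP4K2A, a phosphoinositide kinase gene, was intronic, and the one for SETMAR was in an intron of the neighboring SUMF1. TGFBI, an extracellular matrix gene induced by TGF-beta, had an intergenic region 21.3 kb from its start site (score 166). Those in introns of ADD1 (164), MRPL23 (159) and PCCA (157) completed the 20, although other regions tied with PCCA at 157, MCF2L2 among them. None of the 50-base sequences of the MRPL23 region was unique in hg38, so short reads cannot be placed there with certainty. Under 50% of 50-base sequences were unique in 18 of the 538 regions (3.35%, 95% interval 2.13 to 5.23), beside 2.28% of shared distal regions of score 98 to 150.

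Gained regions were mostly intronic or intergenic, and the intervals of both shares covered those of the other distal sets. The comparison sets were the 46964 shared distal regions of score 98 or more, the 13429 of them with scores of 98 to 150, which are nearer in strength, and the 8021 control-only distal regions of score 98 or more in their own list. The shared regions of score 98 to 150 are not matched in score: their median was 119, above the 108 of the gained regions. Of the gained regions 293 (54.5%, 50.2 to 58.6) were intronic, 32 (5.95%, 4.24 to 8.28) exonic and 213 (39.6%, 35.5 to 43.8) intergenic. The intronic share was 57.6% in shared regions of score 98 to 150 and 57.0% in control-only regions, both within the interval, and the intergenic share was 37.4% and 38.7%. Protein-coding genes held 259 gained regions (48.1%), and a further 60 (11.2%) lay only in long non-coding RNA genes. Neither share has a counterpart from the comparison sets here. The median distance to the nearest protein-coding start site was 23319 bp, beside 22240 bp in shared regions of score 98 to 150 and 29406 bp in control-only regions. Beyond 100 kb of every such start site were 98 gained regions (18.2%, 15.2 to 21.7). The share was 17.7% in shared regions of score 98 to 150 and 25.0% in control-only regions, above the interval of the gained regions. Median GC content of the central 300 bp was 46.0%, beside 47.0% and 45.7%.

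Gained regions mostly had control regions nearby and few other gained regions. The nearest control region was at a median distance of 5715 bp (quartiles 2081 and 15977), and 348 of 538 (64.7%, 60.6 to 68.6) had one within 10 kb. The distances formed a main group of some kilobases and a smaller one close by: 62 gained regions (11.5%, 9.09 to 14.5) began within 500 bp of a control region, the closest at 18 bp. A control-only region lay within 50 kb of 357 gained regions (66.4%, 62.3 to 70.2), beside 74.7% of shared distal regions of score 98 to 150. Another gained region lay within 50 kb of 25 (4.65%), where gained regions were 1.13% of distal HNF4G-KO regions of score 98 or more. Any other HNF4G-KO region lay within 10 kb of 335 (62.3%), close to the share for control regions. The shares for control regions and for other gained regions have no counterpart from the comparison sets here.

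Linking gained regions up to 100 kb apart gave 16 groups with 34 regions, of which 14 were pairs, and 504 regions stood alone. In CUBN, the gene of the vitamin B12 receptor cubilin, 3 intronic regions spanned 59.1 kb of chromosome 10, with scores of 133, 104 and 100. All 3 held AP-1 letters, and 2 of them also held GATA letters. The other group of 3 lay around WWP1, a ubiquitin ligase gene, and the amino acid transporter gene SLC7A13, over 109 kb. There the HNF4G-KO list had 6 regions within 50 kb of WWP1 start sites, 3 of them gained, and control had 3, all shared. Near ALG10, a glycosyltransferase gene on chromosome 12, 2 gained regions of score 146 were separated by 93 bp and lay 41817 and 42211 bp from the nearest control region. A pair at LAMP3 and MCF2L2 on chromosome 3 (chr3:183159436-183193030) had scores of 120 and 157, and a pair around FBXO45 and RNF168 spanned 97.5 kb of the same chromosome.

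Few genes had more than 1 gained region nearby. Of 675 protein-coding genes with one within 50 kb of a start site, 16 had at least 2. MCF2L2, a guanine nucleotide exchange factor gene, had 3, among 38 HNF4G-KO regions there, and 6 of its 37 control regions were in control only. SVIL had 2 of 24, PDZD8 2 of 13, ACOT7 2 of 26, MGST1 2 of 7, ZDHHC19 2 of 8 and NOL4L 2 of 18. Each of these 6 genes also had control-only regions within 50 kb, from 1 at MGST1 to 6 at ACOT7, while WWP1, ALG10 and SLC7A13 had none. For 167 gained regions no protein-coding start site lay within 50 kb.

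Gained regions near genes of 8 fixed lists were rare, as were other distal regions. Near the 24 classical subtype genes, which mark the differentiated form of pancreatic cancer, there was none, which allows up to 0.558% of gained regions, beside 0.228% of the shared distal regions of score 98 or more. Near 28 lineage factor genes there was also none, with the same limit, beside 0.230%. Both zeros hold for 50 kb from a start site. Within 100 kb, 2 gained regions lay near classical genes and 1 near lineage factor genes, beside 2 near basal genes. Near 25 of 26 basal genes found in the annotation there were 2 (0.372%, beside 0.221%). One lay 1.67 kb from the start site of KRT17 and 32.0 kb from that of KRT14, keratins of basal epithelia (score 102, AP-1 letters), and the other 33.9 kb from FAM83A (score 99). Among 27 EMT genes only TGFBI had one (0.186% of gained regions, beside 0.245% of shared ones). Wnt receptor genes FZD8 (score 107, 28.2 kb) and LRP5 (score 122, intronic, 32.5 kb) had 1 each, of 36 Wnt genes (0.372%, beside 0.336%). The TGFB1 region (score 139, intronic, 13.9 kb from that start site) held GATA and AP-1 letters and was the only one for 31 TGF-beta genes (0.186%, beside 0.339%).

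Of 36 axon guidance genes, ROBO3 (score 121), UNC5A (118), PLXNB1 (147) and EPHB2 (124) had a gained region within 50 kb. These encode receptors of the ROBO, UNC5, plexin and Eph families, and the PLXNB1 region was closest, at 6.03 kb. The 4 regions were 0.743% of the gained ones (0.289 to 1.90), with 0.437% of shared regions inside that interval. Near 31 lipid genes there were 2 gained regions (0.372%, 0.102 to 1.35), with 0.245% of shared regions inside that interval. Among these genes, CYP3A4, a drug and steroid oxidase, had an intronic region 4.55 kb from its start site (score 127, AP-1 letters). All 4 control regions within 50 kb of CYP3A4 were shared.

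Short letters of 12 transcription factor families were searched on both strands of the central 300 bp. They were HNF4, FOXA, AP-1, TEAD, RUNX and CEBP as spelled above, the GATA letters AGATAAG, ETS CCGGAAGT, KLF GGGNGTGGC, and consensus letters of HNF1, CTCF and NF-kB. No family's letters contain those of another. A match describes the sequence and does not show that a factor was bound. AP-1 was the most frequent, in 181 gained regions (33.6%, 29.8 to 37.7), beside 35.0% of shared distal regions of score 98 to 150, 39.7% of those of score 98 or more and 37.0% of control-only regions. The order against shared regions of similar score turned in windows of 200 bp (29.6% beside 29.3%) and at scores of 120 or more (37.5% beside 35.2%). The same letters written backwards keep base composition. They occurred in 10.4% of gained, 8.61% of shared (score 98 to 150) and 9.33% of control-only regions. CEBP letters were in 73 (13.6%), beside 13.7% of the shared regions of similar score. None of the 12 families was found in 212 gained regions (39.4%), beside 39.2%.

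HNF4 letters stood in 1 of 538 gained regions (0.186%, 0.0328 to 1.05), at TBC1D30. In shared distal regions of score 98 to 150 the share was 1.06%, and in control-only regions it was 1.71% (1.45 to 2.02). Both lie above the interval of the gained regions, the first by a narrow margin. FOXA letters were in 44 gained regions (8.18%, 6.15 to 10.8), beside 6.85% and 7.02%. Written backwards, FOXA letters were in 7.62%, beside 6.14% and 6.12%. Where over 90% of 50-base sequences were unique, the FOXA shares were 6.58% in gained regions, 6.37% and 6.62%. GATA letters were in 34 (6.32%, 4.56 to 8.70), beside 4.75% and 4.19%. Written backwards, GATA letters were also more frequent in gained regions, at 3.90% beside 2.86% and 3.17%. For GATA the control-only share lay below the interval and the shared one inside it. RUNX letters were in 27 (5.02%, 3.47 to 7.20), beside 3.51% in shared regions of similar score and 3.40% in control-only regions. The control-only share again lay just below the interval. Backwards, RUNX letters were in 1.12%, beside 1.09% and 1.18%. CTCF was found in 20 (3.72%, 2.42 to 5.67), beside 5.46% and 4.01%. KLF (3.35%), TEAD (2.23%), NF-kB (1.12%), HNF1 and ETS (each 0.186%) were less frequent than these. In shared regions of similar score and in control-only regions, KLF had 3.12% and 2.93%, TEAD 2.49% and 3.28%, and NF-kB 1.30% and 1.01%. HNF1 had 0.372% and 0.274%, and ETS 0.439% and 0.299%. All of these lay inside the intervals of the gained regions. FOXA and GATA letters met in 1 gained region (0.186%), beside 0.290% of shared regions of similar score and 0.249% of control-only regions. GATA and AP-1 letters met in 15 (2.79%, 1.70 to 4.55), beside 1.73% and 1.77%, both inside the interval. No test was made of any of these differences, and 12 families were compared.

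The share of distal regions that were gained differed between chromosomes. On chromosome 10 it was 2.29% (57 of 2487, 1.77 to 2.96), the highest, and on chromosome X it was 0.589% (7 of 1188), the lowest. Chromosomes 13 (1.80%), 8 (1.75%) and 3 (1.58%) were next to chromosome 10, and chromosome 2 held 24 of 3957 (0.607%). Chromosomes 10, 3, 8 and 1 together held 39.4% of the gained regions and 27.1% of all distal HNF4G-KO regions of score 98 or more. Distal regions shared with control, chosen by a score of 98 or more in HNF4G-KO alone, also differed by chromosome. That choice favors higher ranks in HNF4G-KO, so differences between chromosomes are given and not the sign. Their scores were ranked among shared regions within each list, and the change in rank, HNF4G-KO minus control, had a median of 4.74 percentile points on chromosome 10 and of -3.64 on chromosome 4. Chromosome 4 had 12 gained regions (0.673%) and the highest control-only share, 22.7%, against 8.28% on chromosome 10. Over 23 chromosomes the gained share and the median rank change of shared regions had a Pearson r of 0.66 and a Spearman rho of 0.66. Without chromosomes 10 and 13, r was 0.56. With the control-only share r was -0.53, and -0.44 without chromosomes 10 and 13. Both measures come from the same pair of lists, so this is a description with no test.

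Gained regions were found along the whole of chromosome 10. In its 7 bins of 20 Mb the gained share was between 1.59% and 3.30%, beside 1.13% of all distal regions, which lay inside the interval of 3 of the 7 bins, and the median rank change of shared regions was between 3.08 and 5.46 points. The bin from 20 to 40 Mb had 11 gained regions of 333, among them those nearest to ZNF248, PIP4K2A, ANKRD30A and SVIL. CUBN and FRMD4A were in the first bin (10 of 355), and NRG3 in the bin from 80 to 100 Mb (10 of 378). The bins with the highest gained shares in the genome were both on chromosome 8, with 7 of 192 (3.65%) and 9 of 249 (3.61%) and median rank changes of 4.37 and -0.43. Over the genome 145 bins held at least 100 distal regions, and 11 of these had no gained region. The cause of these differences between chromosomes was not tested.

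Shared regions within 1 Mb of gained ones had slightly higher median rank changes than those farther away, and the change was not largest at the closest distances. These shared distal regions were chosen by a minimum score in HNF4G-KO alone, with none in control. That choice favors higher ranks in HNF4G-KO, so the sign of the change is not a result. Within 10 kb of a gained region, 323 shared distal regions had a median rank change of 1.69 points, and 58.8% ranked higher in HNF4G-KO. The median was 1.99 points at 10 to 50 kb, 2.39 at 50 to 200 kb and 1.66 at 200 kb to 1 Mb. Farther than 1 Mb from every gained region it was 0.35 points (29193 regions), with 51.6% higher. Over all 46964 the median was 0.919 points, with 54.2% higher. Taking off the median of each region's own chromosome left 0.353 points within 10 kb and 0.589 at 10 to 50 kb. It left 0.905 at 50 to 200 kb, 0.330 at 200 kb to 1 Mb and -0.295 beyond 1 Mb. Before this step, the middle 50% of regions within 10 kb ran from -4.20 to 9.08 points. Differences between these medians were not tested.

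The mouse lists are a readout that the rule did not use. The gained regions had 511 different nearest protein-coding genes, and 441 of these had a namesake in the mouse annotation, matched by symbol. Of the 441, 304 (68.9%, 64.5 to 73.1) had a region found in KPC liver mets and not in the primary tumor within 50 kb of a start site. The share was 67.4% for the nearest genes of shared distal regions of score 98 to 150 and 66.3% for those of control-only regions, both inside the interval. Regions found in the primary tumor only lay near 174 (39.5%, 35.0 to 44.1), beside 38.9% and 37.5%, again inside the interval. The mets list held 16355 mets-only regions of 80843, and the tumor list 5794 of 68074 in the tumor only.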

How the data were processed

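ATAC-seq libraries of 16 samples, grouped by title, were represented by 1 deposited region list per group, mapped to groups and not to replicates. Each list gives positions and a score per region. The authors do not state the scale of this deposited score, so it was used only for ranks and the minimum of 98 within a list. The submitters' processing notes name Bowtie2 2.2.6, MACS2 2.1.1.20160309 and DiffBind, without roles, and the builds hg38 and mm10. The study describes its HPAF-II ATAC-seq comparison as joining all 4 biological replicates. Whether the lists were called on pooled reads, the peak calling settings and the read shift are not given in the sources used here. Reads behind the lists were not analysed here.

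Start sites and gene classes (by region center) came from GENCODE v44. A control region overlapping by 1 bp made a region shared. Sequence letters, GC content and unique 50-base sequences were read from hg38, with the alternate contigs left out, in windows of 300 bp. Shared regions were paired by longest overlap for rank changes. Genes named were those nearest to the 20 highest-scoring gained regions, the 10 with most gained regions within 50 kb, the 5 largest groups, list genes with one within 50 kb and the 3 regions on each side of the score minimum. Python 3.11.15 with pandas 2.3.3, numpy 2.4.6, scipy 1.17.1 and numba 0.67.0 was used, and overlaps, distances and letter searches were tested on simulated data. The gained regions, gene lists and letters were chosen with earlier results of these data known. The comparison with shared regions of score 98 to 150, the limit to unique sequence, the 20 Mb bins and the correction by chromosome were added after seeing the data. A marker, a list gene and a sequence that the naming rule covers are not reported here.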

Additional observations from a re-analysis of the deposited data

How the results depend on the processing

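The number of gained regions depended most on the score minimum: 1290 at 80, 152 at 120 and 30 at 150. Changing the overlap rule, the start-site distance, the chromosomes or the width left it within 1.5 times of 538, and 486 remained where over 90% of 50-base sequences were unique. The overlap rule moved it most among these: 793 where 50% of a region had to be overlapped to count as shared, and 476 where a control region within 500 bp counted. FOXA letters were in 6.13% of 200 bp windows and 12.1% of 500 bp windows, and GATA letters in 3.90% and 9.29%. HNF4 letters were in 0 of 538 windows of 200 bp and in 0 of 152 regions of score 120 or more, so that share rests on 1 region. Of 95 alternatives, 61 left a value within its counting interval, or a count within 1.5 times. Among HNF4, FOXA, GATA, RUNX, CTCF and AP-1, the order against the comparison sets turned for FOXA on unique sequence (6.58% in gained, 6.62% in control-only and 6.95% in shared regions of score 98 or more) and for AP-1 against shared regions of score 98 to 150, in windows of 200 bp (29.6% and 29.3%) and at scores of 120 or more (37.5% and 35.2%). It also turned against shared regions of score 98 or more, which are wider, when whole regions were searched: FOXA 8.92% and 11.8%, GATA 6.32% and 7.98%, RUNX 5.02% and 5.97%. The share of soft-masked bases was not run, since the hg38 sequence used is in capitals throughout. No paired analysis was possible because each group has 1 list and no value per replicate. Read depth is unknown, so a region's absence from control cannot be told apart from weaker detection there.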
